A study of Mus musculus with 9 samples.

Results

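Diabetic brain libraries without transcripts of the caudal hindbrain were compared with the control libraries, which lack the same transcripts, and 6 of the 9 libraries of the series entered the comparison. The members were selected on the raw count of Hoxb5, a Hox gene that marks the caudal hindbrain and spinal cord, with a limit of 100 counts. Hoxb5 had 0, 2 and 0 counts in CON replicates 1, 2 and 3 (CON 1 to CON 3) and 0 counts in each of DNP replicate 2 (DNP 2), DNP replicate 3 (DNP 3) and BAC replicate 2 (BAC 2). In the diabetic libraries left out, DNP 1, BAC 1 and BAC 3, the counts were 232, 747 and 1000, so no library lay close to the limit. Because these counts chose the libraries, they are a description and nothing was tested on them.

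The series comprises whole-brain RNA-seq of male C57BL/6 mice, 7 weeks old at the start, with 3 sequenced brains a group and polyadenylated RNA sequenced without strand information. CON mice were normal mice given saline. DNP mice, the model of diabetic neuropathic pain, ate food with 60% fat over 4 weeks, had daily injections of streptozotocin, which kills insulin-producing beta cells, at 50 mg/kg on 7 days, and later had saline. BAC mice were made diabetic likewise and were then given baclofen, which activates GABA-B receptors, at a daily 8 mg/kg on 7 days. The 3 libraries called diabetic here are therefore 2 from saline-treated mice and 1 from a baclofen-treated mouse, and diet, toxin and high blood glucose cannot be told apart. The 6 libraries held 13879989 to 16008129 counts on genes. Mitochondrial transcripts took 4.34% to 5.36% of the counts in CON and 6.70% to 7.23% in the diabetic libraries.

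A whole-brain sample is a mixture, and the level of a regional gene follows how much of that region the sample holds as well as how active its cells are. Hox genes are switched on in the hindbrain and cord and stay silent in front of them, while Gabra6, a subunit of the GABA-A receptor, is made by granule cells of the cerebellum. Diabetes raises glucocorticoid and inflammatory signals that reach the brain, and lipocalin 2, serpins, complement and metallothioneins are well-known responders in glia and vessels. In bulk samples, fewer cells of a type and less RNA per cell cannot be told apart.

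Both groups lacked caudal hindbrain transcripts after the selection, which left out diabetic libraries only. Each of the 15 Hox genes listed had at most 3 counts in every one of the 6 libraries, and none passed the filter on low counts. Of 12 brainstem markers, 3 passed the filter, and the summed level of the list was 5.96 to 13.3 CPM in 5 of the 6 libraries and 46.0 CPM in CON 2, against 325 to 475 CPM in the diabetic libraries left out. Tph2, the enzyme of serotonin synthesis in neurons, had 6, 5 and 7 counts in CON and 5, 16 and 6 in the diabetic libraries, against 854, 47 and 1701 in DNP 1, BAC 1 and BAC 3. Slc6a4, the serotonin transporter, had at most 2 counts in each of the 6. CON 2 stood apart for Tlx3, a homeobox gene of hindbrain neurons, with 203 counts against at most 14 in the other 5, and for Slc6a5, the glycine transporter, with 397 against at most 65. The libraries are labelled whole brain, and apart from these genes in CON 2 brainstem markers were low in them.

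Cerebellar content was not matched. Gabra6 had 42, 4828 and 735 counts in CON 1, CON 2 and CON 3 and 0 counts in DNP 2, DNP 3 and BAC 2, each of which allows up to 3 counts by counting error alone. Against 3 counts per library it was at least 651-fold lower in the diabetic group, a bound carried by CON 2, which is 134-fold without CON 2 and 13.6-fold from CON 1 alone. Fat2, a cadherin of granule cells, had 172, 15488 and 2436 counts in CON and 3, 0 and 3 in the diabetic libraries. Every one of the 10 granule cell markers was lower on average in the diabetic libraries, with a median log2 fold change of -3.90, and 9 of the 10 Purkinje cell markers were lower, with a median of -2.18. Without CON 2 these medians were -2.12 and -1.16. CON 1 lay nearest to the diabetic libraries. Its mean log2 deviation over the granule cell list, measured from the mean of the 6 libraries, was -0.59, against 4.58 in CON 2, 1.99 in CON 3 and -2.12 to -1.83 in the diabetic libraries. The spread of cerebellar content within CON was therefore larger than the step from CON 1 to the diabetic group.

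**Figure D1:**
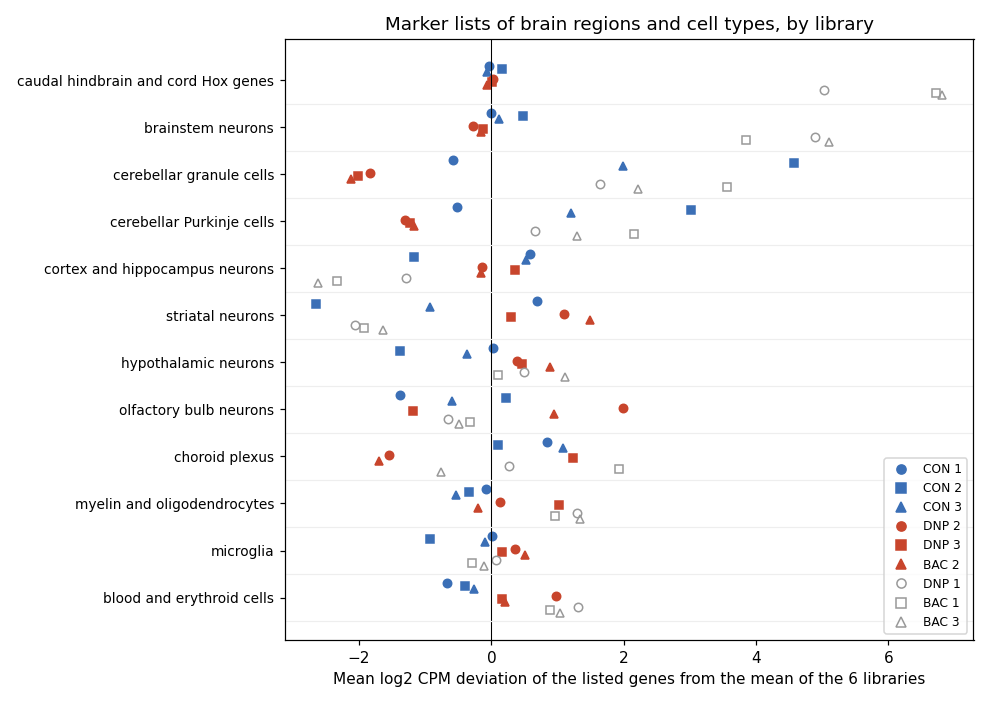
Mean log2 CPM deviation of each marker list (horizontal axis) from the mean of the 6 compared libraries, with 1 point per library: blue for CON, red for the diabetic libraries with a Hoxb5 count under 100, open grey for the 3 diabetic libraries left out. The compared libraries coincide on the Hox list, which is how they were chosen. Among the compared libraries CON 2 is the highest on the granule cell list (4.58) and the lowest on the striatal list (-2.65).

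Other regions differed as well. Among the 6 libraries, markers of striatal projection neurons were lowest in CON 2 and CON 3. Their mean log2 deviation was -0.94 in CON 3, and -2.07, -1.93 and -1.63 in DNP 1, BAC 1 and BAC 3, which were left out. The dopamine receptor gene Drd1 had 43.8, 1.26 and 12.5 CPM (counts scaled to library size with TMM factors) in CON. It had 52.1, 25.8 and 78.1 in DNP 2, DNP 3 and BAC 2. CON 1 overlapped the diabetic libraries for this gene. All 12 striatal markers were higher on average in the diabetic libraries, with a median log2 fold change of 1.40. The median was 0.88 without CON 2 and -0.60 with the cerebellar score, the mean log2 CPM of the granule cell markers, as a covariate. Olfactory bulb markers went both ways, with 4 of 7 tested higher and 3 lower on average. Their summed level was 1401 to 1473 CPM in CON and 959 to 1319 in the diabetic libraries. The mean log2 deviation of the list ordered the libraries differently. It was -1.38, 0.22 and -0.59 in CON and 1.99, -1.18 and 0.94 in DNP 2, DNP 3 and BAC 2. Cdhr1, a cadherin of mitral and tufted cells, had 114 and 43.2 CPM in DNP 2 and BAC 2, 4.07 in DNP 3 and 1.75 to 7.09 in CON. Transthyretin, Ttr, the main product of the choroid plexus, had 458, 238 and 437 CPM in CON, 6.01 and 2.27 CPM in DNP 2 and BAC 2, and 1310 in DNP 3. DNP 3 also had the highest myelin markers of the 6, with Mbp, myelin basic protein, at 1220 CPM against 357 to 683 in the others. Each regional difference named here moved with the groups or with a library, and its part in the differences below was not tested beyond the settings stated.

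Across all genes, 17772 of the 53465 in the table passed the filter on low counts and entered the quasi-likelihood test of edgeR, whose p-values were adjusted over all of them (Benjamini-Hochberg). No gene, or 0% of those tested, reached an adjusted p under 0.05, and the smallest adjusted p was 0.105. At an unadjusted p under 0.05, 1077 genes (6.06%) were higher and 1295 (7.29%) lower in the diabetic libraries. The groups did not overlap for 2039 genes (11.5%) that were higher and 1979 (11.1%) that were lower. DESeq2, the tool named in the study's methods, called 225 genes (1.43% of the 15696 it adjusted) higher and 436 (2.78%) lower at an adjusted p under 0.05. The counts for lists given below are read against these percentages. Since no gene passed the adjusted threshold in edgeR, genes are described as higher or lower by their values. The within-group correlation of log2 CPM across genes ran from 0.916 to 0.980 in CON and from 0.969 to 0.979 in the diabetic libraries.

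Short genes were higher and long genes lower in the diabetic libraries. Genes were put in 5 bins of about equal number by exonic length. In the shortest bin, of 57 to 1953 bases, the median log2 fold change was 0.19, and over the next bins it was 0.10, 0.03 and -0.04, down to -0.16 among genes of 7060 bases or more. The Spearman correlation of fold change with length was -0.284 over 17742 genes, which are not independent and share the same libraries. All 3 CON libraries had their highest median among the longest genes and all 3 diabetic libraries had theirs among the shortest. With offsets for length and GC content, a setting chosen after seeing the data, the medians lay between -0.03 and 0.02. The offsets were fitted to these same genes and libraries, so flat medians over the bins follow by construction. Lists of short genes (ribosomal proteins, respiratory subunits, globins) and of long genes (synaptic scaffolds, ion channels) are given below with counts or medians under both settings. The part of this trend in single results was not tested further.

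**Figure D2:**
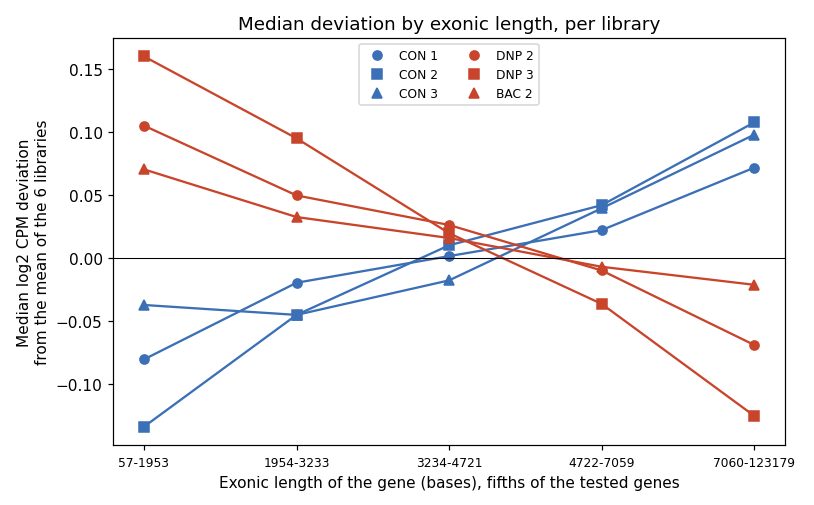
Median log2 CPM deviation from the mean of the 6 libraries (vertical axis) over genes in each of 5 bins of exonic length (horizontal axis, bases), with a line per library. The diabetic lines run from 0.07 to 0.16 for the shortest genes down to -0.13 to -0.02 for the longest, and the CON lines run the other way.

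To name single genes where none passed the adjusted threshold, the 12 genes of smallest p in each direction were taken among those that separated the groups fully and averaged 1 CPM or more, so that their separation is the reason they are named. The 23 of these genes reported here kept their direction in the 14 other settings run. In 6 of those settings 1 library was left out, which can hardly turn a gene chosen for full separation. All settings used the libraries that chose the genes, so nothing is read from the kept direction. Their p-values, adjusted over all genes, ran from 0.105 to 0.264 in edgeR.

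**Figure D3:**
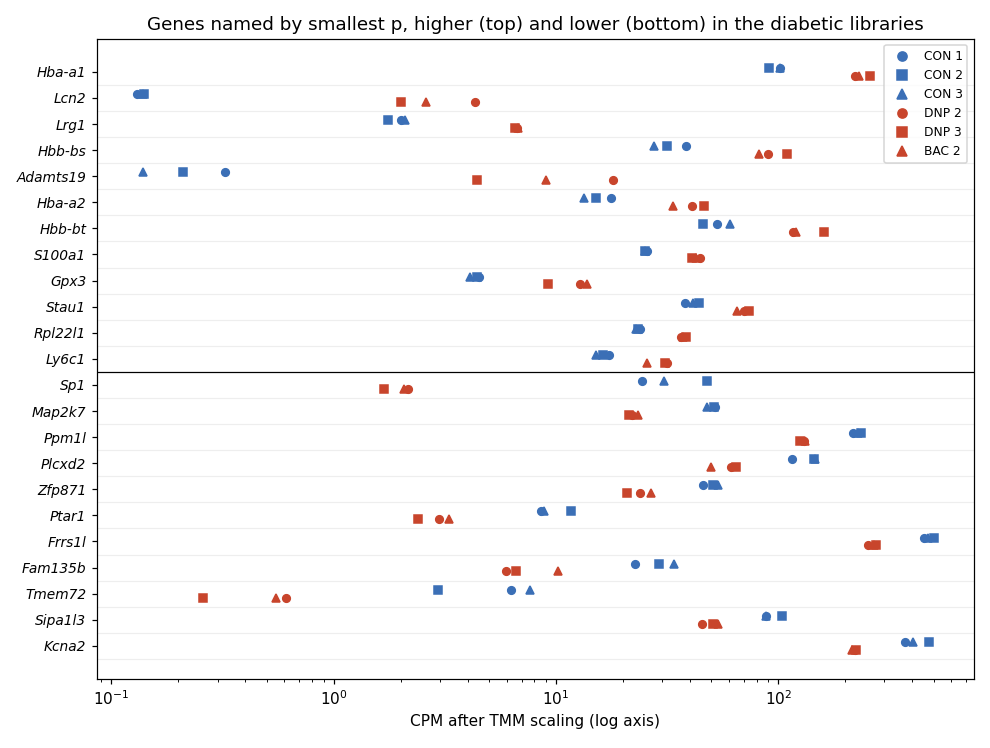
CPM after TMM scaling (horizontal log axis) of 23 genes named by smallest p, with 1 point for each of the 3 CON libraries (blue) and the 3 diabetic libraries (red). Lcn2 and Adamts19 have the widest gaps above the line, with at most 5 counts in a CON library and at least 31 in a diabetic one, and Sp1 has the widest gap below it.

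Erythroid transcripts were higher in every diabetic library. The alpha-globin gene Hba-a1 (chromosome 11 of GRCm38, 32283511 to 32284465) had 1572, 1300 and 1473 counts in CON and 3270, 4000 and 3369 counts in DNP 2, DNP 3 and BAC 2. In CPM it went from 98.6 ± 6.45 to 237 ± 19.3 (SD, n = 3 each), a 2.40-fold difference, or 1.26 on the log2 scale with a standard error of 0.12. The groups did not overlap. The beta-globin genes Hbb-bs and Hbb-bt had log2 fold changes of 1.53 and 1.32, and Hba-a2 had 1.38. Alas2, the enzyme that starts heme synthesis in red cell precursors, had 2.80, 1.26 and 2.01 CPM in CON and 4.19, 7.75 and 5.02 in the diabetic libraries. All 5 of the tested erythroid genes were higher with an unadjusted p under 0.05, against 6.06% of all genes, and 5 of 5 stayed so with any single library left out and with the length offsets, and 4 of 5 with the cerebellar score as a covariate. Mature red cell membrane genes were too low to test, with Slc4a1 at 3, 20 and 5 counts in CON and 9, 2 and 5 in the diabetic libraries. Hba-a1 and Hba-a2 are close copies, as are the beta-globin genes, so the split of reads within each pair is uncertain. Whether blood was flushed from the brains is not given in the sources used here.

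Lcn2, lipocalin 2, a secreted siderophore-binding protein made by reactive astrocytes, endothelium and neutrophils, had 2, 2 and 2 counts in CON and 64, 31 and 38 counts in DNP 2, DNP 3 and BAC 2. Set against 3 counts per library it was at least 14.6-fold higher in the diabetic group. Neutrophil genes did not follow it in each library. S100a8, a calprotectin subunit of neutrophils, had 43 counts in DNP 2 but 3 and 6 in DNP 3 and BAC 2, where CON had 4, 6 and 9. Lrg1, a secreted leucine-rich glycoprotein of the acute phase, had 2.02, 1.75 and 2.08 CPM in CON and 6.68, 6.52 and 6.74 in the diabetic libraries, a tight separation in both groups. The log2 fold change was 1.76, with a standard error of 0.20.

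Of 16 tested genes on the list for acute phase and reactive glia, 4 were higher and 1 lower at an unadjusted p under 0.05, with a median log2 fold change of 0.48. C4b, a complement component that glia make, went from 31.3 ± 5.93 to 64.3 ± 6.81 CPM (SD, n = 3 each), a log2 fold change of 1.04, with reads that its near copy C4a could share. S100a16, a calcium-binding protein of astrocytes, went from 19.4 ± 3.37 to 43.7 ± 8.41 CPM, with BAC 2 the lowest diabetic library at 34.2. Cd44, a hyaluronan receptor, was the lower one, with 5.20, 7.92 and 6.18 CPM in CON and 1.01, 2.20 and 3.09 in the diabetic libraries. Gfap, the intermediate filament that defines reactive astrocytes, had 167, 168 and 170 CPM in CON and 144, 204 and 177 in the diabetic libraries, so the groups overlapped. Its log2 fold change was 0.06 (standard error 0.15). Of the 12 astrocyte markers, Gfap included, 1 was higher and 11 lower on average, with a median log2 fold change of -0.27. Without CON 1, 3 of these markers were lower at an unadjusted p under 0.05.

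Microglial genes lay higher in the diabetic libraries, with CON 2 the lowest library. Each of the 14 tested microglial markers was higher on average, 5 with an unadjusted p under 0.05, and the groups did not overlap for 9, against 11.5% of all genes. C1qb, a subunit of complement C1q, had 32.8, 15.7 and 26.1 CPM in CON and 49.2, 42.0 and 48.7 in the diabetic libraries. Aif1, which encodes the microglial protein Iba1, had 2.41, 0.98 and 3.47 against 5.06, 4.71 and 5.02 CPM. Without CON 2 the median of the list was 0.37 in place of 0.65, and with the cerebellar score as a covariate it was -0.16. The count of 5 ran from 0 with that covariate, 1 without DNP 2, and 2 without DNP 3 or BAC 2 or with the length offsets, to 8 without CON 2. The summed level of the list was 222 to 401 CPM in CON and 449 to 550 in the diabetic libraries.

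The NF-kB list, which holds inflammatory regulators, was centred near 0. Of 22 tested genes of the NF-kB pathway, 2 were higher at an unadjusted p under 0.05 and the median log2 fold change was 0.01. The count was 1 without CON 3, DNP 2 or DNP 3 and 0 with the cerebellar score as a covariate. The stronger by p was Icam1, a leukocyte adhesion molecule, at 1.87 ± 0.41 and 4.03 ± 0.77 CPM (SD, n = 3 each). The other was Nfkbia, the inhibitor that NF-kB itself induces, with 14.8, 17.0 and 16.2 CPM in CON and 28.4, 25.4 and 17.7 in the diabetic libraries. The chemokines Cxcl10 and Ccl2 had under 10 counts in each of the 6 libraries. Of 17 interferon response genes, Ifitm3, a membrane protein that blocks viral entry, passed the unadjusted threshold, at 0.95 on the log2 scale (standard error 0.23). That count of 1 was 2 without CON 2, 3 without BAC 2 and 4 with the cerebellar score as a covariate. Among 17 genes of complement and antigen presentation, 3 were higher, with a median of 0.53. That count was 7 without CON 2 and 5 without DNP 3.

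Glucocorticoid-responsive genes moved in both directions. Of the 20 tested, 8 were higher and 2 lower at an unadjusted p under 0.05, with a median log2 fold change of 0.52, and 7 were higher and 2 lower with the length offsets. Plin4, a lipid droplet protein, had 4.16, 4.70 and 4.45 CPM in CON and 8.37, 18.9 and 13.6 in the diabetic libraries. Hif3a, a hypoxia-inducible factor subunit, went from 7.77 ± 1.01 to 14.2 ± 1.28 CPM, and the metallothionein Mt1 from 132 ± 23.4 to 202 ± 14.7 CPM (SD, n = 3 each). Klf9, a transcription factor that glucocorticoids induce, was lower, at 181, 178 and 179 CPM in CON and 131, 119 and 128 in the diabetic libraries. Dusp1, a phosphatase of MAP kinases that is both glucocorticoid- and activity-induced, was also lower, with 54.4, 77.2 and 72.7 CPM in CON and 42.1, 34.7 and 40.3 in the diabetic libraries. For Klf9 and Dusp1 every diabetic library lay under every CON library, against the direction of Plin4, Hif3a and Mt1.

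Sgk1, a kinase whose transcription the glucocorticoid receptor controls, is shown because its promoter holds the receptor's motif, and was chosen after its values were seen. It had 63.2, 56.0 and 90.5 CPM in CON and 146, 152 and 91.3 in the diabetic libraries, where BAC 2 lay next to CON 3. Promoters of this gene, of Nfkbia and of Dusp1 are printed because these members of the list differed in opposite directions and hold motifs of different regulators. They run from 250 bases before to 50 after the start, from RefSeq on GRCm38.p6, 5′ to 3′ on the gene's strand, with motif matches in capitals. The motifs searched on both strands were the glucocorticoid receptor core TGTTCT, a pair of cores (AGAACA and TGTTCT with 3 bases between, which overlaps the single core), NF-kB and the cAMP response element TGACGTCA.
Sgk1 (chr10:21993640-21993939, plus strand): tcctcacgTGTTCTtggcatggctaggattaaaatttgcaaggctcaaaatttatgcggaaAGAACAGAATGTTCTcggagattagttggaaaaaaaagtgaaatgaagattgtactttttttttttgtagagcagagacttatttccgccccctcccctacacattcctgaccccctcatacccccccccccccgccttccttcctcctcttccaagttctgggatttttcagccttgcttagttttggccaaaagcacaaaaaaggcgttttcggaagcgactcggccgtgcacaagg
Nfkbia (chr12:55492598-55492897, minus strand): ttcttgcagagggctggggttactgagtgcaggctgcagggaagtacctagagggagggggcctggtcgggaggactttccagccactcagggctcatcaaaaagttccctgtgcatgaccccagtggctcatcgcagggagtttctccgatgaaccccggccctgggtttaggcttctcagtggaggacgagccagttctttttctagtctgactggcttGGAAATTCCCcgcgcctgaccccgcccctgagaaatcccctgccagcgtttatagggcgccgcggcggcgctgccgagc
Dusp1 (chr17:26508423-26508722, minus strand): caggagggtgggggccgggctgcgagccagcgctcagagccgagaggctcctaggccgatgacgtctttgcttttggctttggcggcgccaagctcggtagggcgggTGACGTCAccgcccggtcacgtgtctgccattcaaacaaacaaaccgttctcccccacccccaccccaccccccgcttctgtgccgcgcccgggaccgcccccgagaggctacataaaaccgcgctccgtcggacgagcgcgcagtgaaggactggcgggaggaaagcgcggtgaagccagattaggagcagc
The Sgk1 promoter holds a pair of cores that begins 189 bases before the start, a match found in 3 of 32851 promoters (0.00913%), and a further single core, a motif of 19% of promoters. It is 1 of 6 Sgk1 promoters in the table. Nfkbia holds an NF-kB match 29 bases before the start (3.24% of promoters) and Dusp1 a cAMP response element 143 bases before it (1.79%). The promoters of Plin4, Hif3a, Mt1 and Klf9, named above, held no match to any motif searched. All matches are of letters only, and the libraries carry no measurement of binding.

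Genes of inhibitory signaling went lower in part. Of 26 tested GABA receptor and GABA handling genes, 5 were lower and 0 higher at an unadjusted p under 0.05, 7.29% being the share of all genes that were lower, and the median log2 fold change was -0.10. The count was 8 without CON 2 or with the cerebellar score as a covariate, and 3 without CON 1, CON 3 or DNP 2. Without DNP 3, 4 were lower and 3 higher. With the length offsets 5 were lower and 1 higher, and the median was -0.045. Of 12 inhibitory neuron markers, 11 were higher on average, with a median of 0.56 and none past the unadjusted threshold. Gabrb2, a GABA-A receptor subunit, had 143, 167 and 155 CPM in CON and 51.0, 43.7 and 84.2 in DNP 2, DNP 3 and BAC 2. Gabbr2, the signaling subunit of the GABA-B receptor, had 449, 367 and 444 against 216, 288 and 266 CPM. The potassium channel genes Kcnj3 and Kcnj6, whose channels open when the GABA-B receptor is active, were lower as well, Kcnj3 by a log2 fold change of -0.72. Kcnj6 had 24.9, 13.2 and 26.6 CPM in CON and 9.45, 8.65 and 14.2 in the diabetic libraries. Groups did not overlap for Gabrb2, Gabbr2 and Kcnj3, and did for Kcnj6 through CON 2. In the list of inhibitory scaffold and chloride transport genes, 2 of 20 were lower, Wnk2 and Slc12a5, a share near the 7.29% of all genes. This count was 5 without CON 2, 6 without BAC 2, 1 without DNP 3 and 0 without DNP 2. With the length offsets it was 2, and the median log2 fold change went from -0.18 to -0.07. Slc12a5 encodes KCC2, the chloride exporter of neurons, and had 558, 489 and 539 CPM in CON and 324, 297 and 440 in the diabetic libraries. BAC 2, the library from the mouse given baclofen, was the highest of the diabetic libraries for Gabrb2 and Slc12a5, and with 1 such library this was not tested.

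Presynaptic scaffolds were among the lower genes. Of 26 active zone and release genes, 8 were lower and 0 higher at an unadjusted p under 0.05, and the count was 7 lower with the length offsets, while the median went from -0.18 to -0.03. Pclo, which encodes the giant scaffold Piccolo, had 316, 369 and 347 CPM in CON and 146, 142 and 195 in the diabetic libraries, or -1.10 on the log2 scale with a standard error of 0.16. Bsn, its partner Bassoon, went from 906 ± 136 to 498 ± 65.1 CPM (SD, n = 3 each), and both groups stayed apart. Erc1, a scaffold that binds them, had a log2 fold change of -1.29. Cacna1a, the pore of P/Q-type calcium channels, had 331, 778 and 369 CPM in CON and 191, 221 and 198 in the diabetic libraries, with CON 2 far above the rest. Without CON 2, 16 genes of the list were lower, and with the cerebellar score as a covariate 13 were.

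Of 26 genes of glutamate receptors and the postsynaptic density, 5 were lower and 1 higher at an unadjusted p under 0.05. With the length offsets 2 were lower, and the median log2 fold change went from -0.19 to -0.05. Shank2, a postsynaptic scaffold, went from 162 ± 20.7 to 75.5 ± 19.3 CPM (SD, n = 3 each). The count of lower genes was 12 without CON 2 or with the cerebellar score as a covariate, and 1 to 3 without any other single library.

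Kcna2, a delayed rectifier potassium channel of axons, went from 418 ± 53.4 to 220 ± 4.91 CPM (SD, n = 3 each). Frrs1l, a protein that helps assemble AMPA receptors, went from 474 ± 24.9 to 267 ± 10.9 CPM. Kcna2 and Frrs1l are both among the genes named by smallest p. Both separated the groups without overlap, and the exonic length of Kcna2, 11906 bases, falls in the longest bin.

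Sp1 had the smallest p of all genes. This gene of a zinc-finger transcription factor that binds GC-rich promoters (chromosome 15, 102406143 to 102436404) had 375, 682 and 440 counts in CON and 32, 26 and 30 in DNP 2, DNP 3 and BAC 2. The CPM were 34.3 ± 12.1 and 1.97 ± 0.25 (SD, n = 3 each), -4.12 on the log2 scale with a standard error of 0.31 and an adjusted p of 0.105 in edgeR's quasi-likelihood test. It did not follow the diagnosis in the libraries left out, with 439 counts in DNP 1 and 629 in BAC 1 but 35 in BAC 3. Sp7, the neighbouring gene of the same family, was looked at after these values were seen and had 47, 25 and 31 counts in CON and 289, 62 and 104 in the diabetic libraries. Tmem72, a membrane protein gene, was low in the same 4 diabetic libraries, with 96, 42 and 110 counts in CON, 9, 4 and 8 in the diabetic libraries and 35, 180 and 8 in DNP 1, BAC 1 and BAC 3.

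Map2k7, the kinase that activates JNK, was lower, and the size of the difference depended on how an overlapping gene model was counted. It had 799, 733 and 689 counts in CON and 325, 331 and 342 in the diabetic libraries, or -1.18 on the log2 scale with a standard error of 0.11. The gene model Gm49320 overlaps it on chromosome 8 and went the other way, with 24, 109 and 11 counts in CON and 286, 395 and 322 in the diabetic libraries. Summed over the 2 genes, the level was 53.7 ± 5.20 CPM in CON and 44.6 ± 2.96 CPM in the diabetic libraries (SD, n = 3 each), a log2 ratio of -0.27, and the groups still did not overlap. BAC 3 had 399 and 420 counts of these genes, and DNP 1 had 713 and 43. The library preparation kept no strand information, and how the reads of overlapping models were divided is not stated in the sources used here.

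Adamts19, a secreted metalloprotease on chromosome 18, had 5, 3 and 2 counts in CON and 267, 68 and 131 counts in the diabetic libraries, and 17, 13 and 35 in DNP 1, BAC 1 and BAC 3. The remaining genes with the smallest p had smaller changes. S100a1, a calcium-binding protein, had 25.7, 25.2 and 25.2 CPM in CON and 44.6, 40.9 and 42.7 in the diabetic libraries. Stau1, an RNA transport protein, went from 41.3 ± 2.89 to 69.8 ± 4.09 CPM, and Gpx3, the secreted glutathione peroxidase, from 4.33 ± 0.21 to 11.9 ± 2.42 CPM (SD, n = 3 each). Ppm1l, a protein phosphatase, had 218, 235 and 228 CPM in CON and 131, 125 and 133 in the diabetic libraries, whose mean was 57.1% of that in CON. On the lower side were also Plcxd2, Zfp871, Ptar1, Fam135b and Sipa1l3, with log2 fold changes of -1.21, -1.08, -1.74, -1.92 and -0.90.

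**Figure D4:**
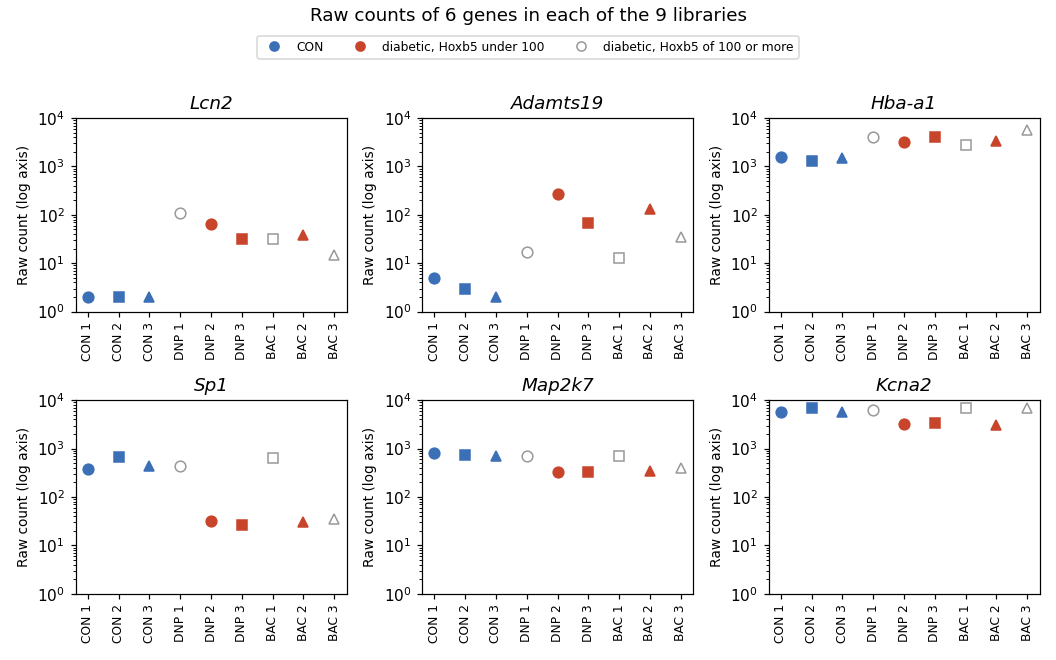
Raw counts (vertical log axis) of 6 genes in each of the 9 libraries, blue for CON, red for the diabetic libraries compared, open grey for the 3 diabetic libraries left out. Lcn2 and Hba-a1 lie above CON in all 6 diabetic libraries, while for Sp1 the libraries left out split, with 439 and 629 counts in DNP 1 and BAC 1 and 35 in BAC 3.

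The vascular and meningeal lists were mixed. Of 12 endothelial markers, 4 were higher at an unadjusted p under 0.05 and 1 lower, with a median of 0.08. The higher count was 2 without CON 3 or DNP 2. Ly6c1, a surface protein of brain endothelium, went from 16.3 ± 1.15 to 29.4 ± 3.22 CPM, and Vwf, von Willebrand factor, from 30.2 ± 4.73 to 49.4 ± 10.2 CPM (SD, n = 3 each). All 12 meningeal and fibroblast markers were lower on average, 2 of them past the unadjusted threshold, with 4 without CON 1 and 7 without BAC 2. The median of -0.64 was -0.32 without DNP 3 and -0.07 with the cerebellar score as a covariate, where 1 gene passed. Dcn, the matrix proteoglycan decorin, had 20.9, 13.3 and 23.3 CPM in CON and 7.36, 7.62 and 9.07 in the diabetic libraries, and Igf2, insulin-like growth factor 2 of the meninges and vessels, had 58.0, 66.9 and 74.6 against 38.8, 43.0 and 46.9. The summed level of the list ran from 136 to 190 CPM in CON and from 84.6 to 140 CPM in the diabetic libraries. Of 10 oligodendrocyte precursor genes, 3 were higher at an unadjusted p under 0.05, against 6.06% of all genes. Their log2 fold changes ran from -0.20 to 0.80, with a median of 0.37. The lineage factors Olig1 and Olig2 were at 0.80 and 0.77. With the cerebellar score as a covariate the median was 0.02, with 0 higher and 1 lower past the threshold. Of 12 myelin genes, 4 were higher. That count was 0 without DNP 3, CON 2 or CON 3 and 9 without BAC 2.

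Insulin signaling genes leaned lower. Of 24 tested, 6 were lower and 0 higher at an unadjusted p under 0.05, with a median log2 fold change of -0.21. With the length offsets 4 were lower and the median was -0.07, and with the cerebellar score as a covariate 2 were lower. Irs2, the docking protein of the insulin receptor, had 102, 98.6 and 124 CPM in CON and 60.7, 58.4 and 73.9 in the diabetic libraries. Foxo3, a transcription factor that insulin keeps out of the nucleus, had 137, 242 and 164 against 95.7, 89.1 and 105 CPM, and Igfbp5, which binds insulin-like growth factors, went from 198 ± 18.4 to 137 ± 8.93 CPM (SD, n = 3 each). Of 22 genes of lipid fuel and ketone use, 2 were higher, Angptl4 among them. Angptl4, a lipoprotein lipase inhibitor induced by fasting, was 1.21 higher on the log2 scale (standard error 0.44). The count of 2 was 5 without CON 2 or with the cerebellar score as a covariate, 3 without DNP 3 and 1 without CON 1, CON 3 or DNP 2. Among 20 cholesterol synthesis genes, 3 were lower, among them Stard4 and Insig1, with log2 fold changes of -0.74 and -0.33. Both are targets of the transcription factor SREBP. The count was 11 without CON 2 and 6 with the cerebellar score as a covariate.

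Of 21 antioxidant and NRF2 target genes, 6 were higher at an unadjusted p under 0.05, and 3 were with the length offsets. The count was 1 without CON 3 or with the cerebellar score as a covariate, and 2 without DNP 2 or DNP 3. Sod1, superoxide dismutase, went from 108 ± 13.3 to 152 ± 8.25 CPM, and Fth1, the iron-storing ferritin heavy chain, from 1273 ± 228 to 2096 ± 612 CPM with DNP 3 highest (SD, n = 3 each). Immediate early genes of neuronal activity showed 1 gene past the threshold of 20, Dusp1, with 6 past it without CON 2, and a median of -0.36. The median was -0.62 without CON 2 and 0.01 without CON 3. Of 22 genes of protein folding and ER stress, 0 passed the unadjusted threshold in edgeR and 0 the adjusted one in DESeq2. The lists for astrocytes, pericytes, choroid plexus, ependyma, pituitary, inhibitory neurons and thalamus likewise had 0 genes past either threshold. Without DNP 3, the one diabetic library of the 3 with high choroid plexus markers, 10 of the 12 choroid plexus genes were lower.

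Genes of protein synthesis and respiration were higher together, each by a small step. Of 50 tested cytoplasmic ribosomal protein genes, 41 were higher and 0 lower at an unadjusted p under 0.05, against 6.06% of all genes, with a median log2 fold change of 0.54. Rps20 had 47.3, 38.2 and 40.9 CPM in CON and 86.9, 66.0 and 87.3 in the diabetic libraries, and Rpl34 had 28.8, 29.7 and 27.2 against 46.4, 42.6 and 46.3. With the length offsets 28 were higher and the median was 0.42, and with the cerebellar score as a covariate 14 were higher and the median was 0.37. Reads of these genes can be shared with their many pseudogenes. Of 40 nuclear-encoded respiratory chain subunits, 20 were higher, with a median of 0.30, and 7 were with the length offsets. The count was 9 with the cerebellar score as a covariate, 10 without DNP 3, 12 without CON 3 and 13 without DNP 2. Atp5e, a small subunit of ATP synthase, went from 46.6 ± 2.62 to 72.3 ± 7.08 CPM (SD, n = 3 each). Of the 13 mitochondrially encoded transcripts, 8 were higher with a median of 0.46, and 1 was with the length offsets. The count was 0 with the cerebellar score as a covariate, where the median was 0.25, and 2 without DNP 2 or BAC 2. The transcript of cytochrome oxidase subunit 3, mt-Co3, had 2407, 1877 and 2328 CPM in CON and 3538, 3250 and 3430 in the diabetic libraries.

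**Figure D5:**
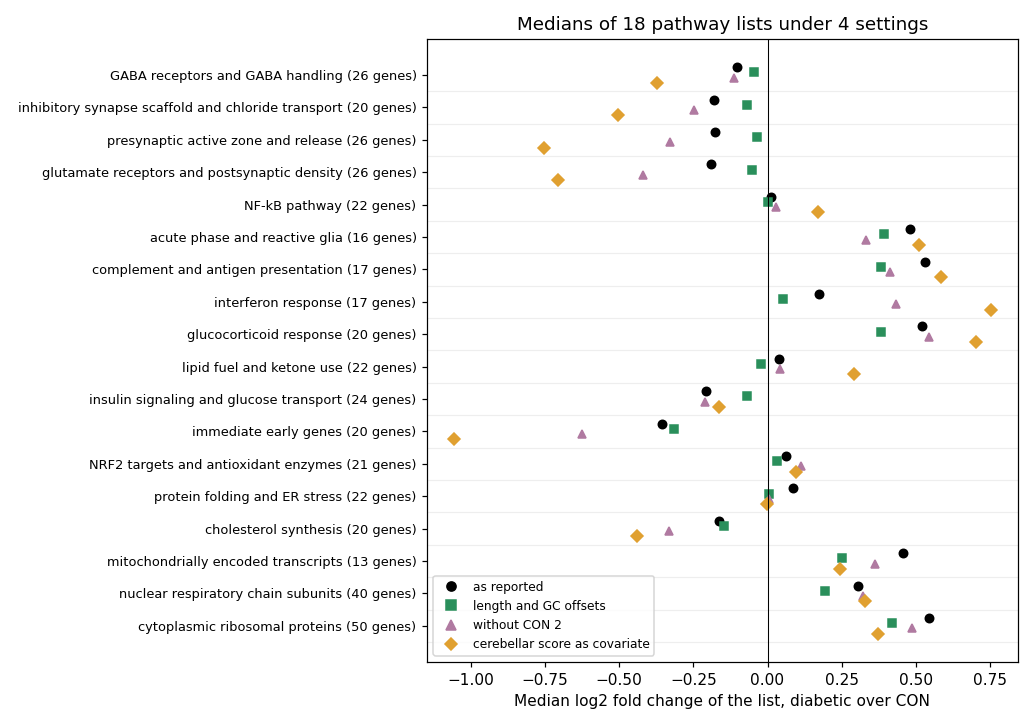
Median log2 fold change (horizontal axis, diabetic over CON) of 18 pathway lists, as reported (black), with length and GC offsets (green), without CON 2 (purple) and with the cerebellar score as a covariate (orange). The ribosomal, respiratory, glucocorticoid, acute phase and complement medians stay above 0 under the 4 settings, and the 4 synaptic lists stay under 0 but move between -0.03 and -0.75.

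Values in DNP 1, BAC 1 and BAC 3, which were not used to find these genes, were set beside the others in a fit of all 9 libraries. Both contrasts share the CON libraries. Globins were higher here too, with log2 fold changes against CON of 1.49 (standard error 0.20) for Hba-a1 and 1.85 (standard error 0.20) for Hbb-bs. Lcn2 had 107, 31 and 15 counts in these libraries and was 4.63 higher on the log2 scale (standard error 0.89). Kcna2 was 0.14 (standard error 0.12) in them against -0.93 in the hindbrain-poor libraries, and Plcxd2 0.19 against -1.21. Ppm1l and Frrs1l were -0.64 and -0.90 in them, near the -0.81 and -0.83 of the hindbrain-poor libraries. Gfap, at 0.06 in the hindbrain-poor libraries, was 1.57 (standard error 0.19) in the others. Irs2 was 0.02 against -0.75. The differences between these 2 sets of diabetic libraries were not tested, and the sets differ in hindbrain and cerebellar content.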

How the data were processed

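Gene counts from 9 polyadenylated, unstranded whole-brain libraries were used as the authors deposited them, as raw counts per gene with no normalization. The submitters' processing notes name fastp, FastQC 0.11.9, Bowtie2 2.3.4.1, HISAT2 2.1.0, StringTie 1.3.3b and GRCm38. The FPKM table was not used. Libraries were grouped by their labels, and the hindbrain-poor set was taken by Hoxb5 counts under 100. The members and the 40 gene lists were chosen with earlier results of these data known.

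Main tests used edgeR 4.0.16 (quasi-likelihood, TMM, filterByExpr with a minimum count of 10) in R 4.3.3, with Benjamini-Hochberg adjustment at 0.05, on 6 libraries without covariates. With 4 residual degrees of freedom, and with nothing stating separate cohorts, p-values measure the spread between these brains. An exact permutation test of 3 against 3 cannot go below 0.1. Bounds use a floor of 3 counts per library, for counting error only. DESeq2 1.42.0, which the study's methods name, was an alternative, beside other size factors, no filter, all 9 libraries, a cerebellar score, a replicate block, library sizes without mitochondrial genes, each library left out, and length and GC offsets (splines of 5 degrees of freedom, added after the data were seen). Lengths came from GENCODE annotation of GRCm38. Scripts were tested on simulated data.

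Genes were named as 12 in each direction (largest change among adjusted calls, filled by smallest p, with a mean of 1 CPM or more, no overlap, and no predicted genes or pseudogenes), up to 4 per list by smallest p, Hoxb5, Gabra6 and the cell type markers. Sgk1, Sp7, Gm49320 and other genes said to be so were chosen after their values were seen. Some genes under this rule are not reported here.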

Additional observations from a re-analysis of the deposited data

How the results depend on the processing

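With edgeR, 0 genes passed the adjusted threshold in every setting except the replicate block and the fit without CON replicate 2. DESeq2 called 661 genes. The replicate block called 6 genes, all lower, namely Cnpy1, Sp1, Fat2, Pcp2, Tfap2b and Ppp1r17. Same-numbered CON and diabetic libraries did not deviate together (correlations 0.05, -0.09 and -0.01), and the block is given here alone. For DNP 2 and BAC 2, which also share a number, no such correlation was computed. On the choroid plexus list their mean log2 deviations were -1.55 and -1.70, against 1.23 in DNP 3. Whether same-numbered libraries share a factor was not tested. Leaving out 1 library gave 0 to 1 adjusted calls, the 1 being Sp1 without CON 2. At an unadjusted p under 0.05 it gave 560 to 1387 higher genes and 758 to 1719 lower genes, with the lowest of both without DNP 2. Without CON 3 there were 709 higher, and without DNP 3 there were 843 lower. The cause was not tested.

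With the cerebellar score as a covariate the log2 fold change turned for Neurod1 (0.25), Cbln1 (1.06), Ppp1r17 (0.30), Drd1 (-1.29), Cartpt (-0.088) and Ttr (-0.52). Neurod1 and Cbln1 belong to the granule cell list that makes up the score. This setting takes out the mean difference of that list by construction, so nothing is read from their turn. The Ttr log2 fold change was -3.77 with the replicate block, and -6.51 to 0.80 with 1 library left out, turning without DNP 3 or CON 2. The Gfap log2 fold change was -0.066 to 0.16 with 1 library left out, turning without DNP 3. All other named genes kept their direction in the settings run. With the replicate block, the medians of the active zone, glutamate and immediate early gene lists were 0.11, 0.12 and 0.04. Cerebellar content and exonic length move with the groups, and 3 libraries a group limit the precision.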

Other observations

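Genes outside the naming rule, chosen after their values were seen, also separated the libraries. Olfr77, an odorant receptor gene, had 0 counts in CON and in the diabetic libraries left out, and 15, 15 and 14 counts in DNP 2, DNP 3 and BAC 2. Omp, a marker of mature olfactory sensory neurons, had 4, 4 and 2 counts in CON and 569, 16 and 41 in the diabetic libraries. Adcy1, a calcium-stimulated adenylyl cyclase of neurons, had 1195, 2450 and 1553 CPM in CON and 462, 557 and 498 in the diabetic libraries. Dao, the D-amino acid oxidase of cerebellar astrocytes, had 14, 888 and 98 counts in CON and 0 in each diabetic library, at least 116-fold lower against 3 counts per library, a bound that CON 2 carries and that is 19.2-fold without it.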
